A study of Mus musculus with 6 samples.

Results

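The 40 genes described here encode the integrins and the adaptors that couple them to actin, and they were followed in mouse Achilles tendon after surgery. They were chosen by gene symbol and not by a cut on measured values, though with earlier results of these data known. They are the 26 integrin subunits listed in the count table (18 α and 8 β), and 14 adaptors and kinases (Tln1, Tln2, Vcl, Fermt1 to Fermt3, Ilk, Lims1, Lims2, Parva, Parvb, Parvg, Ptk2 and Ptk2b), out of 21878 genes. Cut tendon, for which the label reads Achilles tendon amputation (3 libraries, cut 1 to 3), was set against tendon labelled as sham (3 libraries, sham 1 to 3). The series title concerns bone that forms in soft tissue after trauma, and the gene counts come from total RNA depleted of ribosomal RNA. The labels give no strain, age, sex, time after surgery or animal for any library, so it is not known whether the libraries of a group came from separate mice, and each p-value reflects just the spread among 3 and 3 libraries, which may be technical.

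Integrins are αβ pairs that span the membrane. Outside the cell they bind collagens, laminins, fibronectin and other ligands carrying the tripeptide RGD, or, on blood cells, receptors of other cells. Inside the cell, talin and the kindlins bind the β tail and switch the pair on. Vinculin then ties talin to actin, and a complex of integrin-linked kinase (Ilk), a PINCH protein and a parvin makes a further link. In tendon and muscle these attachments carry load between cells and matrix.

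Library totals ran from 23916839 to 31346730 counts. The tissue label was checked with Tnmd, a membrane protein made mainly by tenocytes, which had 448, 685 and 304 FPKM in cut tendon and 56.1, 49.2 and 30.1 FPKM in sham tendon. FPKM are read counts divided by gene length and library total, so that levels of different genes can be compared. Skeletal muscle RNA was also present: 30 muscle genes took 1.73%, 0.562% and 16.9% of counts in cut 1 to 3 and 20.4%, 20% and 22.3% in sham 1 to 3. Cut 3 therefore had muscle RNA near the sham level, and results that turn on this library are given with and without it. In bulk tissue, fewer cells of a type and less RNA per cell cannot be told apart.

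The promoters of 5 members that rose in cut tendon are shown, since they head the collagen, leukocyte and adaptor results below. They are RefSeq sequence of GRCm38.p6, 5′ to 3′ on the plus strand, on which all 5 genes lie. Each holds 250 bases, except that those of Itgax and Vcl were cut to 226 and 235 bases so as to end before the gene's first annotated base. Capitals mark a searched motif on either strand: GAGGAA in Itga11 (chr9:62677605-62677854) and Itgam (chr7:128062390-128062639), GGAATG in Itgb1 (chr8:128685404-128685653), TGAGTCA in Itgax (chr7:128129300-128129525) and the CArG box in Vcl (chr14:20929148-20929382).
Itga11: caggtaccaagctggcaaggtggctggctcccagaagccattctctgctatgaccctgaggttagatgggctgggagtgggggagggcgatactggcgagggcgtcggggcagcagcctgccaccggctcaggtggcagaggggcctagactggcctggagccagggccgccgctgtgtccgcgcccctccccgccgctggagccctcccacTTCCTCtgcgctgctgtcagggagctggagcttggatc
Itgb1: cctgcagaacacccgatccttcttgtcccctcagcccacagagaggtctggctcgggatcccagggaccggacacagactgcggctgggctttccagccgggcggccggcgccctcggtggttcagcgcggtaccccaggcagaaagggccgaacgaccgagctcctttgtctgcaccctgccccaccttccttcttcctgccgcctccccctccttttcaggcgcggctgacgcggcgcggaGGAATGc
Itgam: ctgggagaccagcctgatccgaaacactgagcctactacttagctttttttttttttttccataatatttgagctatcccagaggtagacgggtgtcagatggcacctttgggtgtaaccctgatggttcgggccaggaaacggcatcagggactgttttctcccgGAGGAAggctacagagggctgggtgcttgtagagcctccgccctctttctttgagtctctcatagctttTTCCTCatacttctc
Itgax: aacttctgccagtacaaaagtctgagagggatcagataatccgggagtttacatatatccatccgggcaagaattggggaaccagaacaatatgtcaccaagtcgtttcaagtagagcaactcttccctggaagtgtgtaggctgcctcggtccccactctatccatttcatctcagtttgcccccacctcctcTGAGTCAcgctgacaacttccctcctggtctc
Vcl: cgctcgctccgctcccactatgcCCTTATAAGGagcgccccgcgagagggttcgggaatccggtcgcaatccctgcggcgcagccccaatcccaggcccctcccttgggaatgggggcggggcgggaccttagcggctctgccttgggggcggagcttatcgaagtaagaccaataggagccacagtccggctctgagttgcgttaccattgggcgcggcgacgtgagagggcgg

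The letters searched are those known to be bound by serum response factor (the CArG box), ETS factors such as PU.1 (GAGGAA), TEAD factors (GGAATG), AP-1 (TGAGTCA) and Sp1 (GGGCGG). The ETS and TEAD letters overlap where both occur at one place, as in Itgb1. Promoters were matched for 27 of the 40 members, 33 promoters in all, and both strands of 250 bases were read. The CArG box was found in promoters of Vcl, Fermt2 and Itgb6, against 1.47% of all 32851 promoters, and of these genes only Vcl passed the test in cut tendon. GAGGAA was found in 11 of the 33 member promoters and in 23.3% of all promoters. TGAGTCA was found in Itgax alone among the matched members, against 4.46% of all promoters. GGAATG was found in Itgb1, Vcl and Itga10, against 12.6% of all promoters, and GGGCGG in 14 of 33 against 32.7%. A match describes letters and is not shown to be a bound site.

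Of the 40 genes, 38 had enough counts to be tested. In cut tendon 13 were called higher and 5 lower by edgeR's quasi-likelihood test at an adjusted p under 0.05, and 20 were not called. The share called higher was 34.2%, against 20.4% of all 14561 genes tested. The share called lower was 13.2%, against 12.3% of all genes, which is near the background. The median log2 fold change over the 38 genes was 0.25, against -0.02 over all genes. TMM-scaled levels of cut and sham libraries did not overlap for 27 of the 38, 14 higher and 13 lower in cut tendon, whereas 54.8% of all genes tested did not overlap. Of the 2 genes not tested, Fermt1 (kindlin-1 of epithelia) had 0 counts in every library, which allows up to 0.0957 to 0.125 CPM per library for counting error only. Itgad, an α partner of Itgb2, had 12 counts over the cut libraries and 55 over the sham libraries.

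**Figure D1:**
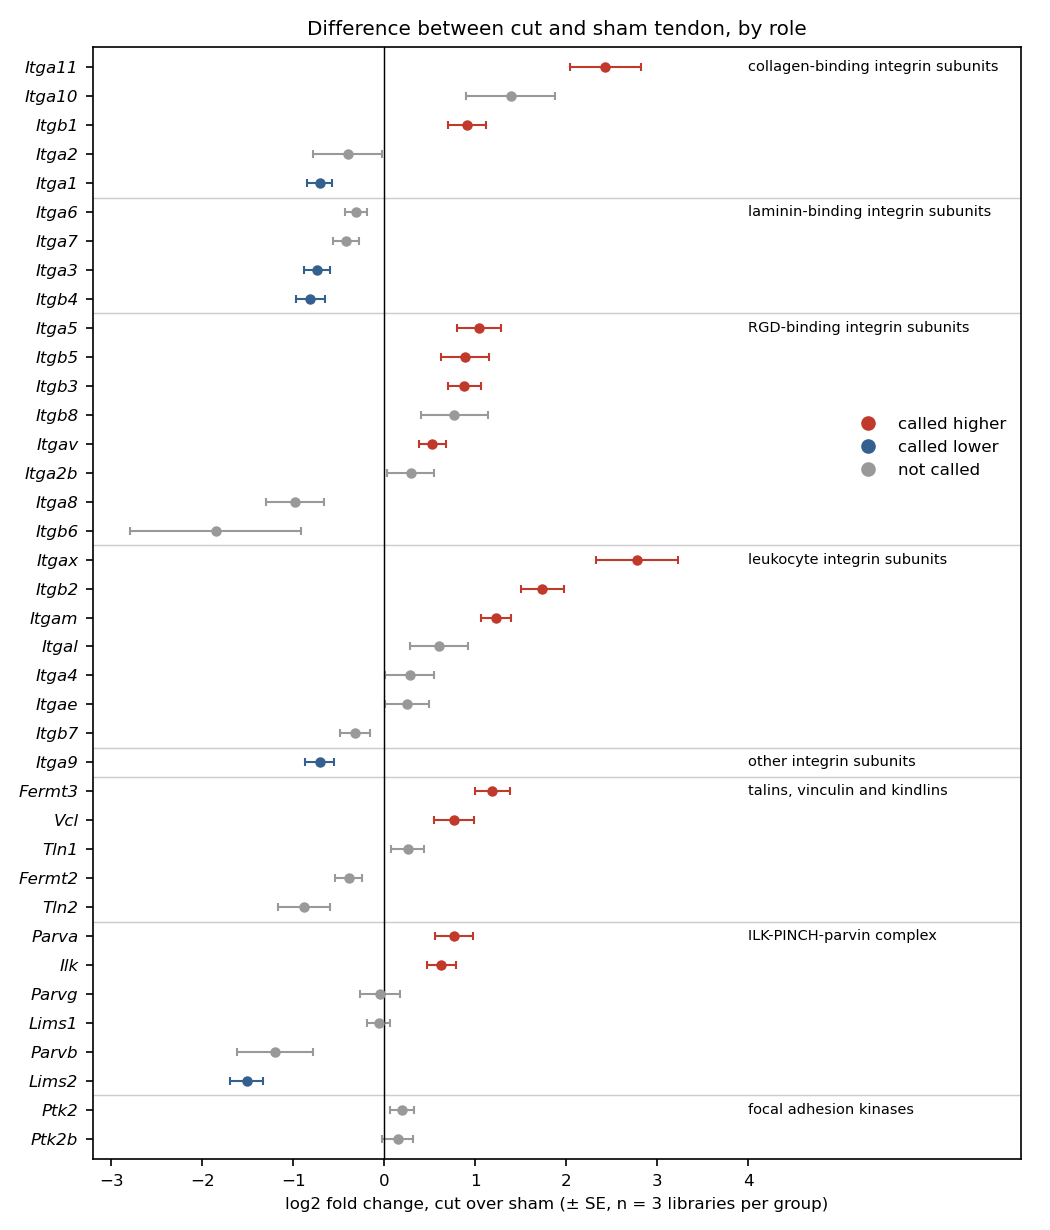
Log2 fold change of the 38 tested genes, cut over sham, by role, with bars of ± SE (3 libraries per group) and colours for genes called higher, called lower or not called. Collagen-binding (5 tested), RGD-binding (8 tested) and leukocyte subunits (7 tested) hold 9 of the 13 higher calls, and all 4 laminin-binding subunits lie below 0.

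Among the collagen receptors one α chain rose and another fell. Itga11, the α11 chain that pairs with β1 on fibroblasts to bind fibrillar collagen, was 5.39-fold higher in cut tendon, the largest change outside the leukocyte subunits among the tested members. Itgb1, the common β1 chain, was 1.87-fold higher. Itga1, the α1 chain that favours basement membrane collagen, was 1.64-fold lower. Of the 5 genes of this group 2 rose (40%, against 20.4% of all genes), 1 fell (20%, against 12.3%) and 2 were not called.

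Itga11 (chr9:62677855-62783979) had 64.8, 68.9 and 28.7 FPKM in cut tendon and 13.1, 10.4 and 6.47 FPKM in sham tendon. Every cut library lay above every sham library, with cut 3 the lowest of its group. Its log2 fold change was 2.43 ± 0.39 (SE, n = 3 per group; adjusted p = 0.00814), and 1.62 with the level of muscle genes as a covariate, where it was still called. Itgb1 (chr8:128685654-128733579), the most abundant of the 40 genes, had 207, 215 and 167 FPKM in cut tendon and 105, 106 and 102 FPKM in sham tendon. The groups did not overlap, and the log2 fold change was 0.91 ± 0.21 (adjusted p = 0.0215). Itga1 (chr13:114958079-115101964) had 13.2, 10.1 and 11.4 FPKM in cut tendon and 21.7, 18.8 and 16.1 FPKM in sham tendon. It was lower in every cut library, cut 3 included, by -0.71 ± 0.14 (adjusted p = 0.0141).

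Itga10, the α10 chain best known from cartilage, had 33.7, 28.2 and 13 FPKM in cut tendon and 14.8, 9.38 and 4.22 FPKM in sham tendon. Cut 3 lay inside the sham range, and the log2 fold change of 1.39 ± 0.49 was not called (adjusted p = 0.0717). It was called with a replicate block (1.46, adjusted p = 0.0119) and without cut 3 (1.68, adjusted p = 0.00782), and was 0.59 with the mean level of 30 muscle genes as a covariate (adjusted p = 0.377). DESeq2 called Itga10 as well (1.40, adjusted p = 0.014), while limma-voom and limma on FPKM did not. Itga2, the α2 chain of platelets and epithelia, had overlapping groups at 2.93 to 4.14 FPKM in cut tendon and 2.29 to 7.3 FPKM in sham tendon (-0.40 ± 0.38, adjusted p = 0.428). Itga11 was called without any 1 library, whereas the calls of Itgb1 and Itga1 depended on single libraries. Without any 1 library other than cut 3, Itgb1 kept a log2 fold change of 0.80 to 0.93 but was not called (adjusted p 0.0551 to 0.1). Itga1 was not called without sham 1 or sham 2 (-0.74 to -0.62, adjusted p 0.0536 to 0.0606).

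Of the 4 laminin-binding chains other than β1, which rose, 2 fell and 2 were not called, against 12.3% of all genes called lower. In each of the 4 every cut library lay below every sham library, where 54.8% of all genes did not overlap in either direction. Itgb4, the β4 chain that pairs with α6 in hemidesmosomes and on Schwann cells, had 13.9, 10.4 and 10.5 FPKM in cut tendon and 24.1, 19.9 and 16.7 FPKM in sham tendon, a log2 fold change of -0.81 ± 0.16 (adjusted p = 0.0135). Itga3, the α3 chain of epithelial laminin receptors, had 3.41, 2.37 and 2.87 FPKM in cut tendon and 4.93, 5.29 and 4.15 FPKM in sham tendon, a log2 fold change of -0.74 ± 0.14 (adjusted p = 0.0133). Both were 1.67- to 1.75-fold lower, and cut 3 lay between cut 1 and cut 2.

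Itga7, the main laminin-binding α chain of skeletal muscle, had 18.3, 19.3 and 20.2 FPKM in cut tendon and 25.9, 26 and 25.7 FPKM in sham tendon (-0.42 ± 0.14, adjusted p = 0.0616). The 30 muscle genes took 1.73%, 0.562% and 16.9% of counts in cut 1 to 3 and 20% to 22.3% in sham tendon, and with their level as a covariate Itga7 was -0.33 (adjusted p = 0.151). Itga6, the α6 chain of epithelia, endothelium and nerve, had 19.4, 17.5 and 16.7 FPKM in cut tendon and 23.6, 22.3 and 20.4 FPKM in sham tendon (-0.31 ± 0.12, adjusted p = 0.0803). Endothelial markers moved the same way: all 10 were lower in cut tendon without overlap, where 54.8% of all genes did not overlap in either direction. Of them 6 were called (60%, against 12.3% of all genes), with 1 called without sham 2 and 10 without cut 3 (against 29.7% of all genes). Their summed level was 553 to 842 CPM in cut tendon and 1068 to 1236 CPM in sham tendon. Their part in the laminin receptor values was not tested. Without sham 2 neither Itga3 (-0.69, adjusted p = 0.0613) nor Itgb4 (-0.85, adjusted p = 0.0551) was called, and without cut 3 Itga7 was (-0.49, adjusted p = 0.0133). DESeq2 called both Itga7 (-0.42, adjusted p = 0.0199) and Itga6 (-0.31, adjusted p = 0.0202) lower. Itga7 was also called by limma-voom (adjusted p = 0.049) and by limma on FPKM, and Itga6 by neither.

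The receptors for RGD ligands such as fibronectin and vitronectin rose in part. Of the 8 subunits 4 rose (50%, against 20.4% of all genes), none fell (against 12.3%) and 4 were not called. Itga5, the fibronectin receptor chain α5, was 2.05-fold higher, Itgb5 1.85-fold, Itgb3 1.84-fold and Itgav 1.44-fold. Itgav, Itgb3 and Itgb5 can form αvβ3 and αvβ5, which bind vitronectin and other RGD proteins.

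Itga5 (chr15:103344286-103366791) had 45.2, 42.5 and 22.8 FPKM in cut tendon and 17.4, 19 and 16.8 FPKM in sham tendon, with no overlap and cut 3 nearest to the sham level (1.04 ± 0.24, adjusted p = 0.0225). Itgb5 had 78.9, 97.3 and 52.1 FPKM in cut tendon and 47.3, 42.1 and 33.9 FPKM in sham tendon (0.89 ± 0.26, adjusted p = 0.04). It was the second most abundant β chain in both groups. Itgav had 27.2, 25.7 and 19.2 FPKM in cut tendon and 18, 16.5 and 15.3 FPKM in sham tendon (0.53 ± 0.15, adjusted p = 0.043). Itgb3, known from platelets and osteoclasts, had 7.91, 6.3 and 4.81 FPKM in cut tendon and 2.98, 3.66 and 3.6 FPKM in sham tendon (0.88 ± 0.18, adjusted p = 0.0146). In all 4 genes cut 3 was the lowest cut library and still above every sham library. Itga2b, the platelet partner of β3, was low and overlapped at 1.19 to 2.47 FPKM in cut tendon and 1.46 to 1.69 FPKM in sham tendon (0.29 ± 0.26, adjusted p = 0.394). Of 4 tested platelet genes Pf4 and Gp1bb rose (50%, against 20.4% of all genes) and Ppbp fell (25%, against 12.3%). Neither Pf4 nor Gp1bb was called without any 1 library other than cut 3. No platelet gene was called lower without cut 2, without sham 2 or with the muscle covariate.

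Itgb6, the β6 chain known as an epithelial activator of latent TGF-β, was lowest in cut 1 and cut 2, the libraries with the smallest shares of muscle RNA. It had 1.71, 0.73 and 10.6 FPKM in cut tendon and 15.1, 14.9 and 18.4 FPKM in sham tendon, and its log2 fold change of -1.85 ± 0.94 was not called (adjusted p = 0.165). Without cut 3 it was -3.80 (adjusted p = 6.05e-05), and with the muscle level as a covariate it was -0.62 (adjusted p = 0.0101). DESeq2 (-1.88, adjusted p = 0.0489), limma-voom (-2.76, adjusted p = 0.0493) and limma on log2(FPKM + 1) called Itgb6 lower, and limma on log2(FPKM + 0.1) did not. Markers of epidermis, where the gene is usually described, summed to 8.64 to 16.7 CPM in cut tendon and 9.72 to 20.4 CPM in sham tendon. None of the 6 tested was called, at an unadjusted p under 0.05 or by DESeq2 either, and Krt1 and Ivl had at most 10 counts over all libraries. Without cut 3, however, 1 gene of the epidermis list was called lower, where 29.7% of all genes were. Of the 6 tested, 5 had a log2 fold change above 0 and 1, Dsp, below 0 (-1.25 ± 0.57, adjusted p = 0.129). Dsp had 0.316, 0.159 and 0.722 FPKM in cut tendon and 0.64, 1.25 and 0.996 FPKM in sham tendon. As with Itgb6, its cut 3 lay nearest to the sham libraries.

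Itgb8, another receptor chain for latent TGF-β, overlapped at 4.92 to 7.16 FPKM in cut tendon and 1.74 to 5.42 FPKM in sham tendon (0.77 ± 0.37, adjusted p = 0.147). Itga8, the α8 chain of smooth muscle and mesenchymal cells, had 2.53, 1.22 and 2.77 FPKM in cut tendon and 5.13, 4.62 and 3.13 FPKM in sham tendon (-0.98 ± 0.32, adjusted p = 0.0589). It was called without cut 3 (-1.25, adjusted p = 0.00662), by DESeq2 (-0.99, adjusted p = 0.016) and by limma-voom (-1.04, adjusted p = 0.0496), and not by limma on FPKM. Without any 1 library other than cut 3, Itga5 (0.89 to 1.06, adjusted p 0.0654 to 0.0828), Itgav (0.44 to 0.57, adjusted p 0.102 to 0.155) and Itgb5 (0.64 to 0.98, adjusted p 0.0867 to 0.137) were not called. Itgb3 was not called without sham 1 or sham 2 (0.77 to 0.90, adjusted p 0.0546 to 0.0581), and Itga2b was without cut 3 (0.53, adjusted p = 0.0272).

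Of the 7 tested leukocyte subunits 3 rose (42.9%, against 20.4% of all genes) and none fell (against 12.3%). Itgax, the αX chain (CD11c) of dendritic cells and macrophages, was 6.85-fold higher. Itgb2, the common β2 chain, was 3.34-fold higher, and Itgam, the αM chain (CD11b) of myeloid cells, 2.35-fold. Fermt3, the kindlin of blood cells that switches these integrins on, was 2.28-fold higher. These 4 calls were kept without any 1 library.

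Itgax (chr7:128129526-128150657) had 7.92, 2.38 and 5 FPKM in cut tendon and 0.551, 0.655 and 0.961 FPKM in sham tendon (2.78 ± 0.45, adjusted p = 0.00818). Itgb2 (chr10:77530329-77565708) had 16.7, 8.8 and 14.5 FPKM in cut tendon and 3.4, 4.35 and 4.09 FPKM in sham tendon (1.74 ± 0.24, adjusted p = 0.00571). Itgam (chr7:128062640-128118491) had 9.91, 6.69 and 9.7 FPKM in cut tendon and 3.63, 3.87 and 3.64 FPKM in sham tendon (1.23 ± 0.16, adjusted p = 0.00551). Fermt3 (chr19:6998958-7019469) had 6.63, 3.95 and 4.64 FPKM in cut tendon and 2, 2.36 and 2.22 FPKM in sham tendon (1.19 ± 0.19, adjusted p = 0.00814). In each of the 4 the groups did not overlap and cut 2 was the lowest cut library. Cut 3 was not the lowest here, unlike for Itga11, Itgb1 and the RGD receptors that rose.

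None of the other tested leukocyte subunits was called. Itgal, the α chain of lymphocyte LFA-1, had 1.55, 0.769 and 1.48 FPKM in cut tendon and 0.787, 0.641 and 1.05 FPKM in sham tendon (0.60 ± 0.32, adjusted p = 0.183). Itga4, the α4 chain that binds VCAM-1, ran from 1.58 to 3.13 FPKM in cut tendon and 1.8 to 2.38 FPKM in sham tendon (0.28 ± 0.27, adjusted p = 0.435). Itgae, the αE chain of T cells in epithelia, ran from 0.399 to 0.628 FPKM in cut tendon and 0.322 to 0.473 FPKM in sham tendon (0.25 ± 0.24, adjusted p = 0.444). Itgb7, the β partner of α4 and αE, ran from 0.913 to 1.21 FPKM in cut tendon and 1.09 to 1.46 FPKM in sham tendon (-0.32 ± 0.16, adjusted p = 0.167). Itgal, Itgam, Itgax and Itgad lie together on chromosome 7, between 127296139 and 128205504, and Itgam and Itgax are the ones called.

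Leukocyte markers rose as well. All 10 genes of a list for leukocytes in general rose, against 20.4% of all genes. Their summed level was 367, 324 and 386 CPM in cut tendon and 107, 125 and 127 CPM in sham tendon, a ratio of 3 between the group means. Macrophage genes rose in 12 of 13 (92.3%, against 20.4% of all genes). Among them were Lyz2 (2.25 ± 0.19, adjusted p = 0.0031), lysozyme of phagocytes, and Mpeg1 (2.81 ± 0.24, adjusted p = 0.00317), a pore-forming protein of macrophages. The 1 other macrophage gene went the other way, lower in cut tendon without overlap. By DESeq2, and by edgeR without cut 3, 1 macrophage gene was called lower. Of the neutrophil list 1 of 5 tested genes rose (20%, against 20.4% of all genes; 0 without cut 1, sham 1 or sham 2). Of the T and NK cell list 3 of 9 rose (33.3%, against 20.4% of all genes), with 2 to 4 without 1 library and 7 by DESeq2. Of the B cell list both of the 2 tested rose, against 20.4% of all genes (1 without any 1 library other than cut 2). Set against the sum of the 10 general leukocyte genes, a ratio added after the values were seen, the log2 ratio of Itgam was lower in cut than in sham tendon by -0.37 and that of Fermt3 by -0.42. In both every cut library lay below every sham library (exact permutation test, two-sided, p = 0.1 each, the smallest p that 3 against 3 allows). The ratios of Itga4, Itgal, Itgb7 and Parvg were lower without overlap as well, by -1.35, -1.01, -1.89 and -1.64. The ratios of Itgb2 (0.12, exact permutation p = 0.5) and Itgax (1.07, exact permutation p = 0.2) overlapped between the groups.

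Itga9, the α9 chain that binds tenascin-C and VCAM-1 and is known from lymphatic and smooth muscle cells, fell. It had 5.56, 3.81 and 5.24 FPKM in cut tendon and 8.32, 8.47 and 6.95 FPKM in sham tendon, a log2 fold change of -0.71 ± 0.16 (adjusted p = 0.0194) and 1.63-fold lower. The groups did not overlap. Without cut 1, sham 1 or sham 2 it was not called (-0.74 to -0.68, adjusted p 0.0569 to 0.0798).

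**Figure D2:**
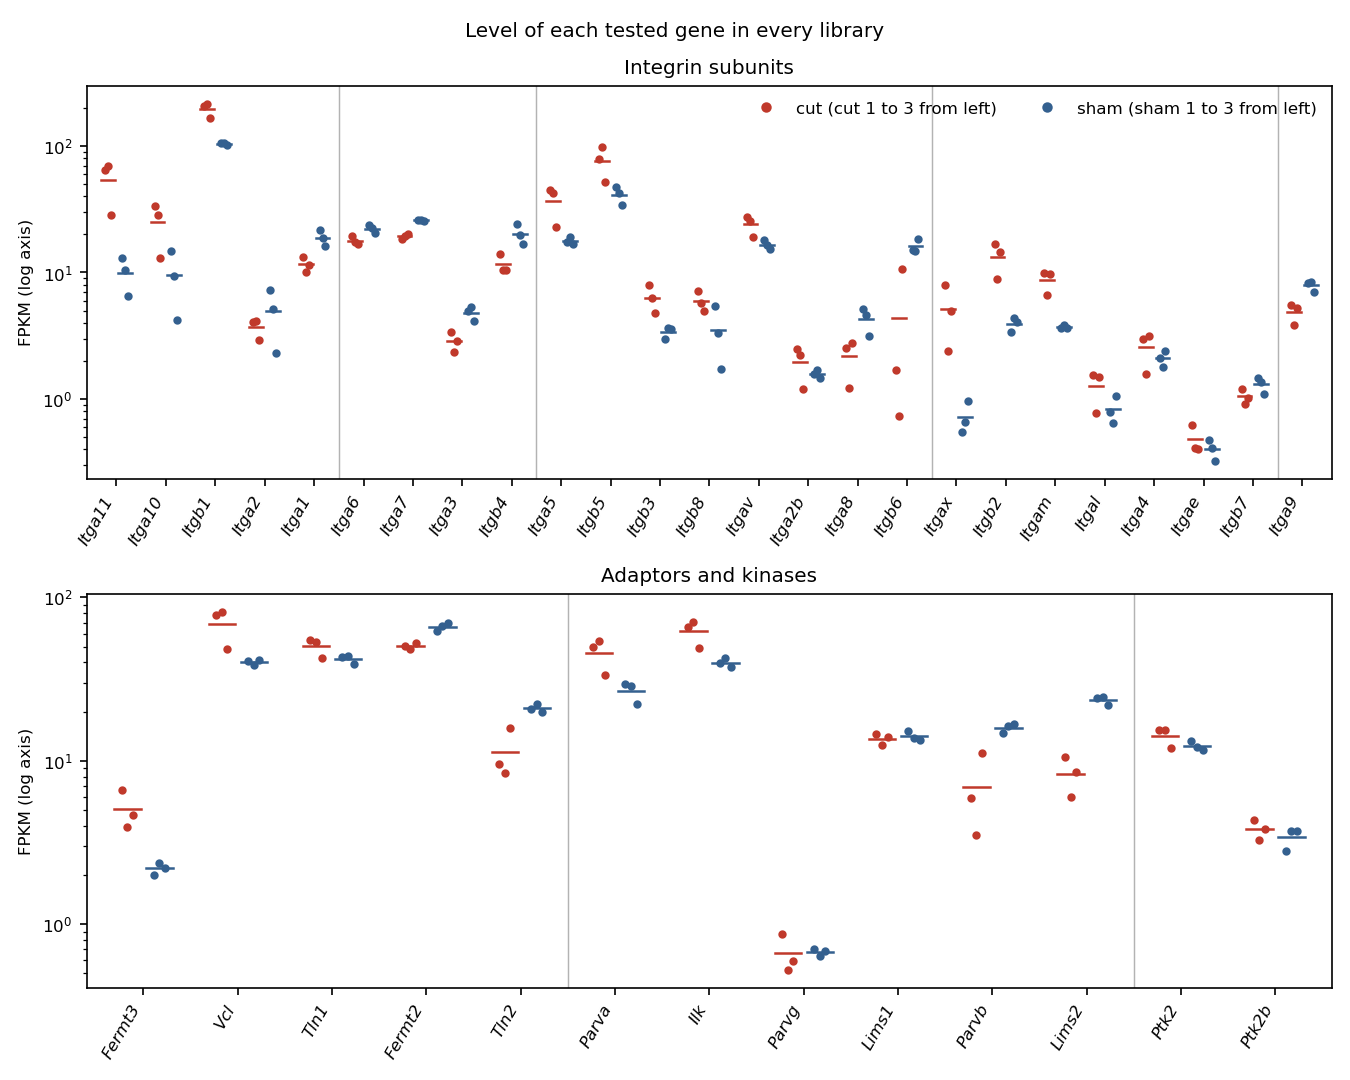
Deposited FPKM (log axis) of each tested gene in every library, cut in red left of sham in blue, with points in the order of library 1 to 3 and a line at the group mean. Itga11, Itgb1 and Itgax of cut tendon lie above their sham points in every library, Lims2 lies below, and the cut points of Itgb6 spread from 0.73 to 10.6.

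Among the talins, kindlins and vinculin, 2 of 5 tested genes rose (40%, against 20.4% of all genes), Vcl and the blood cell kindlin Fermt3. None fell (against 12.3% of all genes). Vcl (chr14:20929383-21033676) had 77.5, 81 and 48.5 FPKM in cut tendon and 40.6, 38.5 and 41.3 FPKM in sham tendon, a log2 fold change of 0.77 ± 0.22 (adjusted p = 0.0415) and 1.71-fold higher. It was the most abundant adaptor of cut tendon, though it overlapped there with Ilk. Its call was lost with the replicate block (0.74, adjusted p = 0.0611) and without any 1 library other than cut 3 (0.61 to 0.78, adjusted p 0.109 to 0.149).

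Tln1, the widely expressed talin, had 55.1, 53.5 and 42.6 FPKM in cut tendon and 43.1, 43.8 and 38.9 FPKM in sham tendon (0.26 ± 0.18, adjusted p = 0.284). Cut 3 lay inside the sham range in FPKM, though not after TMM scaling. Tln2, the talin abundant in skeletal and heart muscle, had 9.55, 8.47 and 15.9 FPKM in cut tendon and 20.7, 22.2 and 19.8 FPKM in sham tendon (-0.88 ± 0.29, adjusted p = 0.057). It was called with the replicate block (-0.95, adjusted p = 0.0476) and without cut 3 (-1.26, adjusted p = 0.000166). Tln2 was also called with DESeq2 size factors, with upper quartile scaling, and by DESeq2, limma-voom and limma on FPKM. With the muscle covariate it was -0.40 and not called (adjusted p = 0.109), nor was it called without any 1 library other than cut 3. Fermt2, the kindlin of mesenchymal and muscle cells, had 50.4, 48.3 and 52.8 FPKM in cut tendon and 62.1, 67 and 69.6 FPKM in sham tendon (-0.39 ± 0.15, adjusted p = 0.0902). Its groups did not overlap, and without cut 3 it was called (-0.46, adjusted p = 0.0231). DESeq2 called Fermt2 as well (-0.40, adjusted p = 0.0369), while limma-voom and limma on FPKM did not.

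The members of the complex of integrin-linked kinase, PINCH and parvin went apart. Of the 6 genes Ilk and Parva rose (33.3%, against 20.4% of all genes), Lims2 fell (16.7%, against 12.3%) and 3 were not called. Lims2, which encodes PINCH-2, was 2.84-fold lower, the largest decrease among called members, while Lims1, which encodes its paralog PINCH-1, differed by -0.06 ± 0.13 (adjusted p = 0.731). Ilk, the pseudokinase at the centre of the complex, was 1.55-fold higher, and Parva, the widely expressed α-parvin that joins it to actin, 1.7-fold.

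Lims2 had 10.5, 5.98 and 8.59 FPKM in cut tendon and 24.1, 24.7 and 21.9 FPKM in sham tendon (-1.51 ± 0.18, adjusted p = 0.00466). All cut libraries were below all sham libraries, and cut 3, with a muscle share of 16.9%, lay between cut 1 and cut 2. Lims1 had 14.5, 12.5 and 13.9 FPKM in cut tendon and 15.3, 13.8 and 13.5 FPKM in sham tendon, with overlapping groups. Ilk (chr7:105736590-105742925) had 65.8, 70.5 and 49.3 FPKM in cut tendon and 39.6, 42.4 and 37.6 FPKM in sham tendon (0.63 ± 0.16, adjusted p = 0.0279). Parva (chr7:112427706-112591688) had 50, 54 and 33.3 FPKM in cut tendon and 29.4, 28.7 and 22.2 FPKM in sham tendon (0.77 ± 0.21, adjusted p = 0.0359). Neither overlapped between the groups, and cut 3 was the lowest cut library in both.

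Parvb, the β-parvin abundant in muscle and heart, had 5.96, 3.51 and 11.2 FPKM in cut tendon and 14.8, 16.3 and 16.8 FPKM in sham tendon (-1.20 ± 0.42, adjusted p = 0.0674). As with Itgb6 and Tln2, cut 3 lay nearest to the sham libraries. Parvb was called with the replicate block (-1.37, adjusted p = 0.0388), without cut 3 (-1.81, adjusted p = 0.000158) and with the muscle covariate (-0.45, adjusted p = 0.0401). DESeq2, limma-voom and limma on FPKM called it as well. Parvg, the parvin of blood cells, had 0.526 to 0.876 FPKM in cut tendon and 0.637 to 0.708 FPKM in sham tendon (-0.04 ± 0.22, adjusted p = 0.907). Without any 1 library other than cut 3, Ilk (0.49 to 0.65, adjusted p 0.072 to 0.103) and Parva (0.60 to 0.82, adjusted p 0.0897 to 0.129) were not called.

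The focal adhesion kinases did not pass the test. Ptk2, which encodes focal adhesion kinase, had 15.4, 15.4 and 11.9 FPKM in cut tendon and 13.3, 12.2 and 11.6 FPKM in sham tendon (0.20 ± 0.13, adjusted p = 0.262). Ptk2b, its relative Pyk2 of blood and nerve cells, had 4.36, 3.28 and 3.82 FPKM in cut tendon and 2.79, 3.72 and 3.71 FPKM in sham tendon (0.15 ± 0.17, adjusted p = 0.496). Both overlapped between the groups, neither had an unadjusted p under 0.05, and DESeq2 called 0 of the 2.

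Shares within families show which paralog made up the transcripts. Itga11 was 24.7%, 29% and 17.2% of the summed FPKM of the 18 α genes in cut tendon and 7.74%, 6.71% and 4.92% in sham tendon. By mean level it was the first α gene in cut tendon, where its libraries overlapped those of Itga5, and the sixth in sham tendon, where Itga7 came first without overlapping Itga6. The log2 ratio of Itga11 to Itga1 was 2.12 ± 0.74 in cut tendon and -0.96 ± 0.31 in sham tendon (SD, n = 3 each; two-sided exact permutation test, p = 0.1, the smallest it can give). The FPKM of Itga11 divided by that of Itga1 was 4.9, 6.85 and 2.51 in cut tendon and 0.604, 0.554 and 0.402 in sham tendon. The FPKM ratio of Itga5 to Itga7, the fibronectin receptor chain to the muscle laminin receptor chain, was 2.46, 2.2 and 1.12 in cut tendon and 0.67, 0.732 and 0.653 in sham tendon.

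Itgb1 made up 61.9%, 62.3% and 62.9% of the summed FPKM of the 8 β genes in cut tendon and 51.3%, 54.2% and 56.2% in sham tendon. The β sum was 335, 345 and 265 FPKM in cut tendon and 205, 196 and 182 FPKM in sham tendon, a ratio of 1.62 between means (exact permutation p = 0.1). The α sum was 263, 238 and 167 FPKM in cut tendon and 170, 155 and 132 FPKM in sham tendon, a ratio of 1.46, and cut 3 lay within the sham range (exact permutation p = 0.2). Itgb1 per summed FPKM of the 12 α chains that can pair with it was 0.861, 0.956 and 1.12 in cut tendon and 0.647, 0.719 and 0.824 in sham tendon (exact permutation p = 0.1).

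The adaptor families also differed in the share of each paralog. Lims2 made up 42.1%, 32.3% and 38.1% of PINCH FPKM in cut tendon and 61.1%, 64.2% and 61.9% in sham tendon, so that the more abundant PINCH gene was Lims1 in every cut library and Lims2 in every sham library. Parvb made up 10.5%, 6.05% and 24.9% of parvin FPKM in cut tendon and 32.9%, 35.7% and 42.3% in sham tendon. Tln2 made up 14.8%, 13.7% and 27.2% of talin FPKM in cut tendon and 32.4%, 33.7% and 33.8% in sham tendon, while the talin sum was 61.7 ± 3.11 FPKM in cut tendon and 62.9 ± 3.75 FPKM in sham tendon (SD, n = 3 each; exact permutation p = 0.7). Fermt3 made up 11.6%, 7.55% and 8.08% of kindlin FPKM in cut tendon and 3.12%, 3.4% and 3.09% in sham tendon. For Parvb and Tln2 cut 3 was nearest to sham tendon, with its muscle share of 16.9%.

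Of 12 paralog pairs examined, the log2 ratios of 8 did not overlap between cut and sham libraries, each at the smallest exact permutation p of 0.1, so that none could pass a threshold of 0.05 in a design of this size. Besides the pairs above these included Parvg to Parva, lower by -0.79 in cut tendon, and Itgam to Itgal, higher by 0.67. The other 4 pairs overlapped, with differences of -0.03 for Ptk2b to Ptk2, -0.11 for Itga7 to Itga6, 0.79 for Itgb2 to Itgb1 and -0.00 for Itgb3 to Itgb5. Taken singly, 54.8% of all genes tested did not overlap. Ratios of unrelated gene pairs were not examined, so whether 8 of 12 exceeds the background was not tested.

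**Figure D3:**
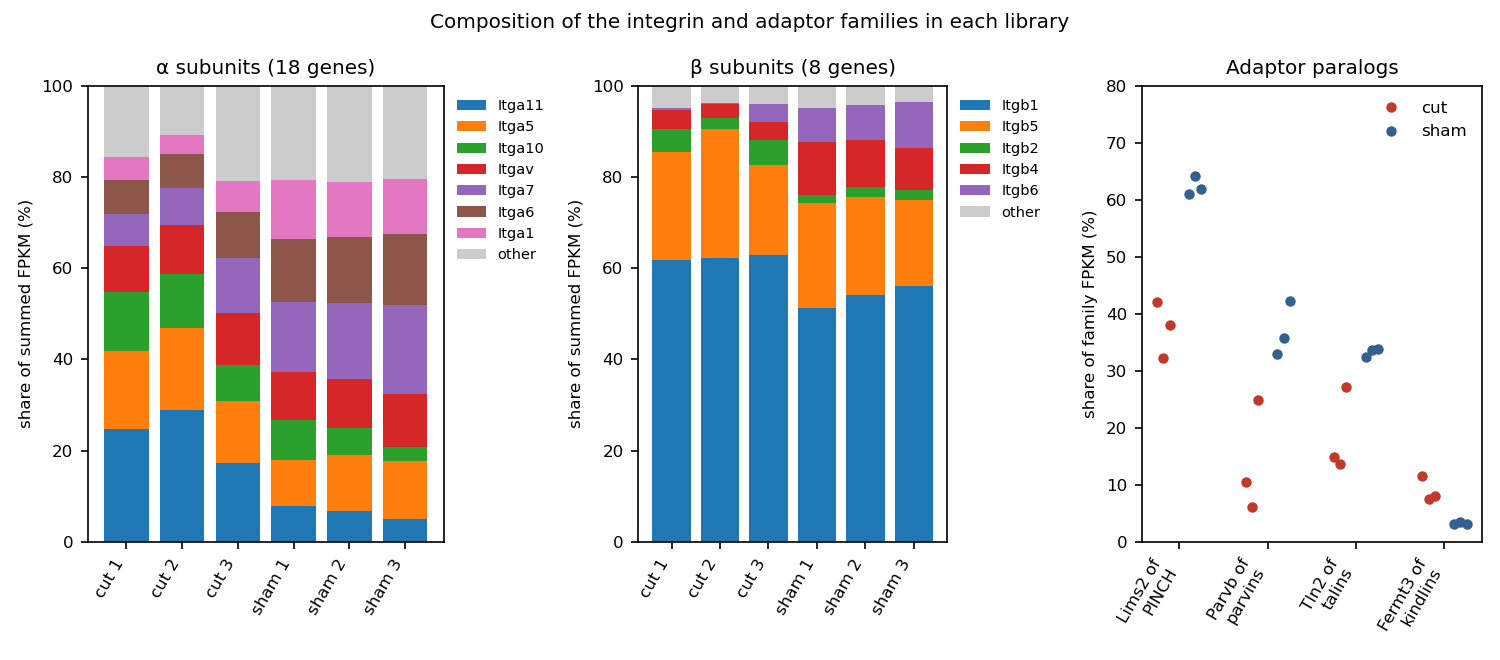
Shares of summed FPKM (%) in each library of the 18 α genes (left) and the 8 β genes (middle), and the share of 4 adaptors within their families (right, one point per library, cut in red left of sham in blue). The Itga11 share lies between 17.2% and 29% in cut libraries and between 4.92% and 7.74% in sham libraries, and the Lims2 share does not exceed 42.1% in cut libraries.

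Genes that work with these proteins were read from lists chosen with earlier results known. Of 36 other focal adhesion proteins 9 rose (25%, against 20.4% of all genes) and 7 fell (19.4%, against 12.3%), with a median log2 fold change of 0.38. Actn1, the non-muscle α-actinin that crosslinks actin, rose (1.60 ± 0.28, adjusted p = 0.00992), with 69.1, 86.6 and 44.2 FPKM in cut tendon and 24.4, 24.2 and 17.2 FPKM in sham tendon. Vasp, which promotes growth of actin filaments, rose too (0.89 ± 0.16, adjusted p = 0.0106). Sorbs3, which encodes the vinculin-binding protein vinexin (-0.82 ± 0.12, adjusted p = 0.00661), and Kank1, which binds talin at the rim of adhesions (-1.19 ± 0.19, adjusted p = 0.00766), fell. Without 1 library the number that rose was 5, 7 and 18 without cut 1, 2 and 3, and 4, 1 and 4 without sham 1, 2 and 3. The number that fell was 4, 4 and 10 without cut 1, 2 and 3, and 3, 3 and 4 without sham 1, 2 and 3. Without cut 3, 28.5% of all genes rose and 29.7% fell.

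Of 18 regulators of integrin activity 5 rose and 5 fell (27.8% each, against 20.4% and 12.3% of all genes), with a median log2 fold change of 0.09. Apbb1ip, the adaptor RIAM that brings talin to integrins in blood cells (0.80 ± 0.12, adjusted p = 0.00678), and Cytip, a leukocyte partner of cytohesin (1.38 ± 0.23, adjusted p = 0.0087), rose. Rasgrp2, the activator of Rap1 in platelets (-1.89 ± 0.27, adjusted p = 0.00611), and Cyth1, a cytohesin (-0.72 ± 0.12, adjusted p = 0.00796), fell. Rasgrp2 had 1.54, 0.706 and 1.37 FPKM in cut tendon and 4.29, 4.69 and 4.35 FPKM in sham tendon. Without 1 library 3 to 6 rose and 2 to 6 fell, the most in both directions without cut 3 and the fewest without sham 2 or sham 3.

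Of 25 tested integrin ligands outside the collagens and laminins 15 rose (60%, against 20.4% of all genes) and 4 fell (16%, against 12.3%), with a median log2 fold change of 1.31. Postn, a matrix protein of injured and growing connective tissue that binds αv integrins, had 721, 731 and 506 FPKM in cut tendon and 23.1, 18.7 and 21.9 FPKM in sham tendon (4.93 ± 0.32, adjusted p = 0.00238). Nov, the matricellular protein CCN3, rose by 1.95 ± 0.15 (adjusted p = 0.00272). Icam2, an endothelial ligand of β2 integrins (-0.82 ± 0.16, adjusted p = 0.0135), and Vwf, which platelets bind (-1.04 ± 0.27, adjusted p = 0.0316), fell. Without 1 library the number that rose was 9, 13 and 16 without cut 1, 2 and 3 and 8, 6 and 9 without sham 1, 2 and 3, and the number that fell ran from 0 without sham 2 to 6 without cut 3. All 14 genes of the costamere, which anchors the contractile apparatus to the membrane through dystrophin, had a log2 fold change below 0 (median -0.83), and Utrn, a dystrophin relative, was the one called (-0.74 ± 0.22, adjusted p = 0.0457). Without cut 3, 12 of the 14 were called lower, where 29.7% of all genes were, and without any other library none was. With all libraries 4 had an unadjusted p under 0.05, and DESeq2 called 5. All 30 muscle genes were also below 0. None was called by edgeR on all libraries, and 30 were called lower without cut 3, against 29.7% of all genes. On all libraries 2 had an unadjusted p under 0.05, and DESeq2 called 7.

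The position of cut 3 was read for each gene. In 23 of the 38 tested members (60.5%) cut 3 was nearer to the sham mean than both other cut libraries, against 62.2% of all genes tested. Without cut 3, 15 members were called higher and 12 lower, against 28.5% and 29.7% of all genes tested in that fit. With the mean log2 CPM of the 30 muscle genes as a covariate, 8 members were called higher and 6 lower, against 13.9% and 8.79% of all genes. Ilk (0.36, adjusted p = 0.0746), Itgav (0.29, adjusted p = 0.134), Itgb5 (0.39, adjusted p = 0.131), Parva (0.38, adjusted p = 0.105), Vcl (0.36, adjusted p = 0.111) and Itga9 (-0.50, adjusted p = 0.0558) lost their calls in that fit, and Itga5 was 0.49 and still called (adjusted p = 0.0363). Marker genes of matrix-forming cells took larger shares of counts in cut tendon. The 13 genes of tenocytes and fibroblasts took 14.9%, 17.7% and 7.19% of counts in cut tendon and 2%, 1.82% and 0.899% in sham tendon. Of them 8 rose (61.5%, against 20.4% of all genes), with 11 called without cut 3 (against 28.5%) and 2 or 3 without any other 1 library. Chondrocyte genes took 1.22%, 1.38% and 0.326% in cut tendon and 0.148%, 0.113% and 0.04% in sham tendon. Of them 7 of 8 tested rose (87.5%, against 20.4% of all genes). The part of these cell types in the integrin and adaptor values was not tested.

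**Figure D4:**
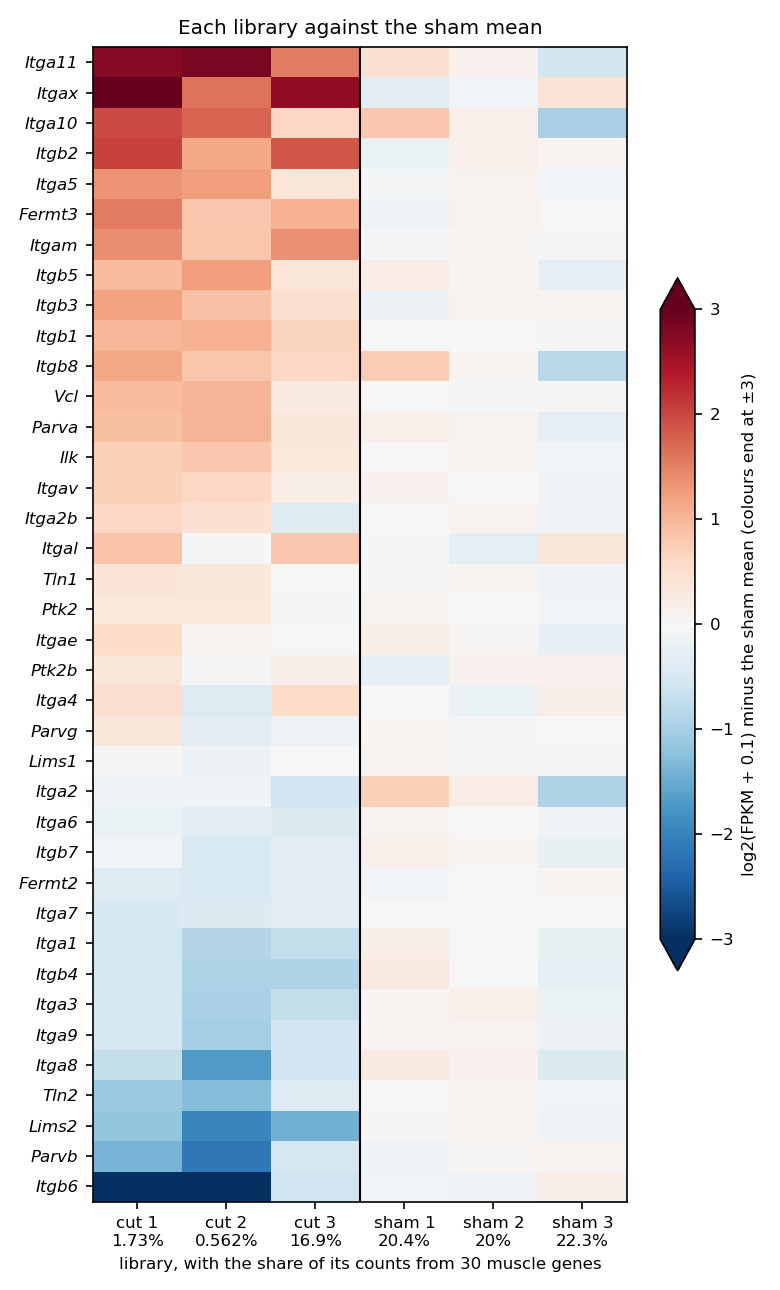
Difference of log2(FPKM + 0.1) from the sham mean for the 38 tested genes (rows) in each library (columns), red higher and blue lower, with the share of counts from 30 muscle genes under each library and colours that end at 3 and -3. In Itgb6 and Parvb cut 3 is closer to the sham libraries than cut 1 and cut 2, whereas in Lims2, Itgam and Itgax it lies with them.

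Some members share exon bases with another annotated gene. Of the 18 called, 6 share exon bases with a gene on the other strand and 2 with a gene on the same strand, and the strand setting of the counting is not given in the sources used here. Reads of those gene pairs may therefore not be told apart. For Fermt3 the partner Trpt1 moved the other way (-0.81, adjusted p = 0.0772), and for Lims2 the partner Gpr17 was listed at no more than 0.0737 FPKM in any library. For Vcl the partner Ap3m1 differed by 0.42 (adjusted p = 0.0658), and for Ilk the partners Rrp8 and Taf10 differed by 0.42 (adjusted p = 0.0718) and 0.22 (adjusted p = 0.331). Creb3, which overlaps Tln1, rose by 0.96 (adjusted p = 0.0167).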

How the data were processed

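RNA was measured in 3 cut and 3 sham Achilles tendon libraries prepared with the TruSeq Stranded Total RNA kit, per the labels' protocols. The submitters' processing notes name Trimmomatic, HISAT2 and the build GRCm38.p6, without versions; the counting program and its strand setting are not given in the sources used here. The deposited count table holds whole read counts per gene, not normalized. The deposited FPKM table holds these counts per gene length and library total, checked from the values. TMM factors of 0.951 to 1.09 are not in the FPKM. All 21878 rows name a gene and 4031 have no count.

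Groups and replicate numbers were taken from the labels. Counts were fitted in R 4.3.3 with edgeR 4.0.16 (filterByExpr, TMM, quasi-likelihood F test), with Benjamini-Hochberg adjustment over 14561 genes and a threshold of 0.05. The common biological coefficient of variation was 0.296. Log2 fold changes are cut over sham, with SE the absolute value divided by the square root of F. Overlap of groups was read from TMM-scaled CPM, and differs in FPKM for Itgb7 and Tln1. Ratios used log2(FPKM + 0.1) and exact permutation tests in Python 3.11.15 with scipy 1.17.1. The fit was tested on simulated counts. Alternatives used DESeq2 1.42.0, limma 3.58.1, other scalings and filters, a replicate block, a muscle covariate and the omission of each library.

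Deviations of same-numbered cut and sham libraries from their group means correlated at 0.259, 0.13 and 0.409, above 0.1 in every pair (differently numbered pairs: -0.332 to 0.244), so blocked values are given where they change a call; the labels do not say that a number marks a shared animal or day. Library pairs were compared by chi-square, and the closest, sham 1 and 2, differed by 14.96 per gene.

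Members and gene lists were chosen with earlier results of these data known. All members are named; called ones and those at 20 FPKM or more in a group are given per library, with a few further members. Of each list of partner genes, the 2 called genes with the smallest p in each direction are named. Of the chondrocyte list, 9 of 10 genes were in the tables. Positions and promoters (250 bases searched) come from RefSeq, GRCm38.p6, matched by gene symbol and NCBI identifier for 40 members and 27 members. Protein sequences were not used here.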

Additional observations from a re-analysis of the deposited data

How the results depend on the processing

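Across 16 alternatives, all 18 called members kept their sign and 6 (Itga11, Itgax, Itgb2, Itgam, Fermt3 and Lims2) were called in every one. The number of members called higher was 13, fell to 8 with the muscle covariate and ran from 5 to 15 without 1 library, 15 being without cut 3 and 5 without sham 1 or sham 2. The number called lower was 5 by edgeR, 13 by DESeq2, 10 by limma-voom, 9 by limma on log2(FPKM + 1) and 8 on log2(FPKM + 0.1). It ran from 1 without sham 2 to 12 without cut 3. Of all genes, 12.3% were called lower by edgeR, 29.7% without cut 3 and 8.79% with the muscle covariate. No share of all genes, higher or lower, is given for the other fits, so counts from those fits have no background here. With no filter on low counts Itgav and Vcl were not called, and by limma on FPKM Itgav was not. The replicate block changed the calls of Vcl (0.74), Itga10 (1.46), Parvb (-1.37) and Tln2 (-0.95) and of no other member. Signs turned in 3 uncalled genes: Itga2b (-0.27) and Lims1 (0.04) with the muscle covariate, and Parvg with upper quartile scaling (0.02) and without cut 2 (0.08; its range without 1 library was -0.20 to 0.08). The cause was not tested. Scaling moved the median of all genes by at most 0.05, to 0.03 with upper quartile scaling. Of 120 recomputed differences in paralog ratio 0 moved by more than 1 SD of the cut libraries. The 120 include the replicate block, which leaves a difference between group means unchanged, so those values could not move. Leaving out 1 of 3 libraries shifts its group mean by less than 1 SD of that group. Values without a cut library could therefore not move either, nor those without a sham library wherever the cut SD was the larger. For all these values the result was fixed in advance and does not show stability. Against the SD of the sham libraries some differences did move further, as Tln2 to Tln1 did without cut 3 (SD 0.68 in cut and 0.05 in sham tendon). Depth limits Itgad and Fermt1.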
